A study of Gallus gallus with 4 samples.

Results

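CTCF is a zinc finger protein that binds a long DNA motif, marks insulators and, together with cohesin, anchors chromatin loops. At many of its motifs, methylation of CpG bases hinders binding. In birds the sex chromosomes are Z and W: males are ZZ and females ZW, so that a female cell has a single Z. Z is large, carries the testis-determining gene DMRT1 on its short arm, and is not silenced chromosome-wide in either sex. Near DMRT1 lies the male hypermethylated (MHM) locus, a block of tandem repeats that is methylated in males and unmethylated and transcribed into long non-coding RNA in females. W is small, rich in repeats and hard to assemble.

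The sites described here are all CTCF calls on Z and W in chicken cells. They were taken from the 3 deposited peak lists by chromosome name, and peaks sharing at least 1 bp were merged into sites. This gave 710 sites, 702 on Z and 8 on W, of 15733 in the whole series, and they rest on 1218 Z peaks and 11 W peaks of 27162. The series used chromatin immunoprecipitation and sequencing (ChIP-seq) with a custom rabbit antibody raised against an N-terminal part of chicken CTCF. HD3, clone A6 of LSCC, is an erythroblast line transformed by avian erythroblastosis virus. In HD3, 1 library came from non-induced cells and another from cells driven towards erythroid differentiation by the kinase inhibitor iso-H-7, in HEPES-buffered medium at raised temperature and in air. DT40 (CRL-2111) is a lymphoid line, grown in the same basal medium with added β-mercaptoethanol. Each of these 3 groups has 1 library of 1 culture. A further library, HD3 input, was not analysed here, and the series holds no input of DT40. The labels do not give the sex of the bird behind either line, and peak lists hold no expression values against which the cell types could be checked.

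As each condition rests on 1 library, differences between them were not tested and no p-value is given. Intervals in parentheses are 95% intervals for counting error only, taking peaks as independent. Read counts are not part of the lists, and sequencing depth is therefore unknown. Absence from a list means that no peak was called and sets no limit on occupancy. Scores are the peak caller's own and were ranked within a list only. Genome build galGal4 was used by the submitters, and no sequence or gene model of that build was at hand, so sites are given by position (counted from 1) without genes or bases.

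Z fell into parts that looked unlike each other. A stretch of 0.3 Mb whose peaks run from 27000595 to 27253967 is called the cluster, and proximal Z means here the first 70 Mb without it. Distal Z runs from 70 Mb to the last peak of non-induced HD3, which ended at 81477722. The end of Z runs from the next peak, at 81598101, to 82362987, the last base of any peak. These parts were cut between peaks with the counts known, so densities across the cuts are descriptions, and the absence of non-induced HD3 from the end of Z is part of how that end was set. Non-induced HD3 had 218 peaks on proximal Z, 41 in the cluster, 147 on distal Z and 0 at the end. Induced HD3 had 80, 28, 121 and 12 in the same order, and DT40 had 239, 3, 267 and 62.

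Over the 702 Z sites together, the differences between parts are pooled. Non-induced HD3 called 57.8% of them (54.1 to 61.5), against 55.7% of all sites in the series. Induced HD3 called 34.0% (30.5 to 37.7), against 30.3%, and DT40 called 76.9% (73.6 to 79.99), against 85.2%. Sites in non-induced HD3 and DT40 without a call after induction made up 16.8% (14.1 to 19.8), against 18.7%. Those in DT40 and induced HD3 alone made up 1.85% (0.990 to 3.15), against 1.17%, and those in induced HD3 alone 3.42% (2.20 to 5.04), against 1.18%. Both HD3 lists without DT40 had 7.41% (5.58 to 9.60), against 4.57%, and non-induced HD3 alone 12.3% (9.92 to 14.9), against 9.09%. DT40 alone had 36.9% (33.3 to 40.6), against 41.9%, and all 3 lists 21.4% (18.4 to 24.6), against 23.4%. The shares called in either HD3 list thus lay within 4 percentage points of those of all sites, and that of DT40 lay lower.

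Proximal Z was sparse in every library. Non-induced HD3 had 3.13 peaks per Mb there (2.73 to 3.57), induced HD3 1.148 (0.910 to 1.43) and DT40 3.43 (3.01 to 3.89). On the numbered chromosomes 1 to 28, called autosomes below, the same lists had 9.09, 4.98 and 14.1 peaks per Mb. Even the large chromosomes 1 to 5 had 7.15, 3.69 and 11.9. Across the 14 bins of 5 Mb before 70 Mb, non-induced HD3 counts ran from 7 to 51 with a median of 17.5. The highest bin was the one with the cluster, and without the cluster no bin exceeded 23. DT40 counts ran from 5 to 28, with a median of 16.5.

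**Figure D1:**
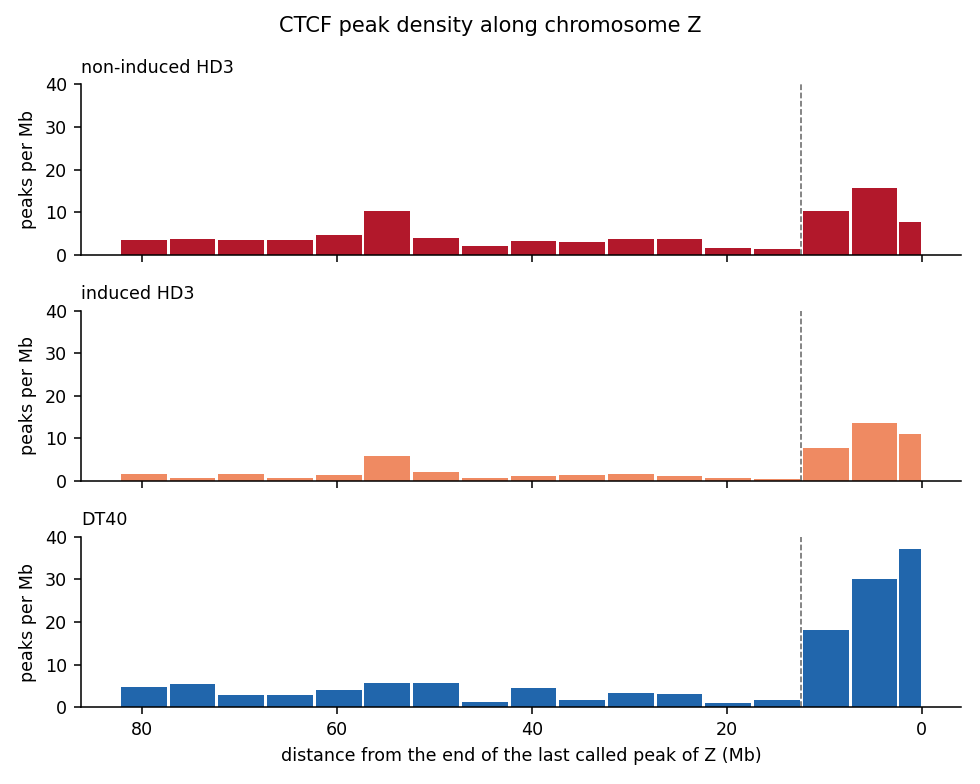
Peaks per Mb (y axis) in 5 Mb bins of Z, plotted by distance from the last called base of Z (x axis, Mb; the chromosome start is at the left), with 1 panel for each library; the last bin is shorter and the dashed line marks 70 Mb. All 3 libraries rise to the right of the line, and the single raised bin to its left in the HD3 panels holds the cluster.

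The longest stretches of Z without a call also lay in this proximal part or at its border. DT40 had no peak from 2235165 to 6894484, a stretch of 4.66 Mb that held 1 non-induced HD3 peak. Induced HD3 had none from 2131439 to 7282855, over 5.15 Mb, where non-induced HD3 had 6 peaks and DT40 had 4. The longest such stretch in non-induced HD3 was 3.09 Mb, from 66936881 to 70030764, with 1 peak in each other list. The first and the second of these stretches overlap over most of their length.

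Peaks of proximal Z were also short and low in their lists. Their median length was 1042 bp in non-induced HD3, against 1219 bp on autosomes, 536 against 651 bp in induced HD3, and 544 against 713 bp in DT40. Their median score stood at percentile 29.2 of the whole non-induced list, 33.8 of the induced list and 39.5 of the DT40 list. Scores under 60, close to the lowest score of 50 in each list, made up 25.7% of proximal non-induced peaks and 12.2% of autosomal ones. In induced HD3 the shares were 31.2% and 18.9%, and in DT40 they were close, at 14.6% and 13.3%. The difference in length was also present at like score. Each list was split by score into 4 bands of equal size. From the lowest to the highest band of the non-induced list, median lengths were 1000, 1053, 1114 and 1151 bp on proximal Z. The autosomal medians were 1170, 1201, 1230 and 1278 bp, so the proximal median was the shorter in each band, as it was in each band of the other two lists.

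**Figure D2:**
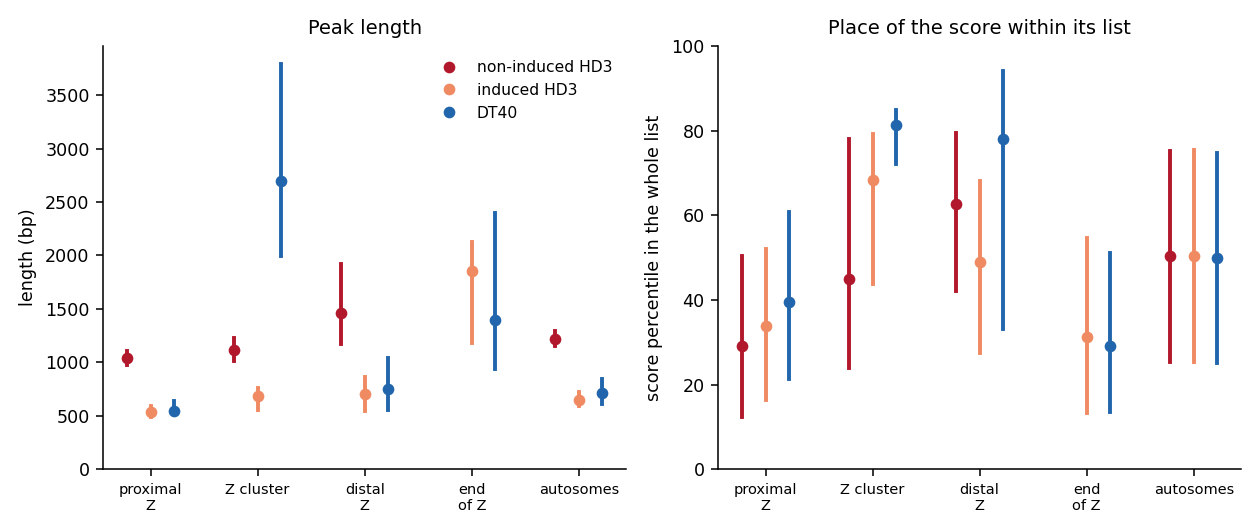
Peak length in bp (left) and the percentile of the caller score within the whole list (right) for each part of Z and for autosomes; points are medians, lines run from the lower to the upper quartile, and colours mark the library. Proximal Z lies below autosomes in both panels in all 3 libraries, and distal Z lies above autosomes in length; the DT40 values of the cluster rest on 3 peaks.

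A few proximal sites nevertheless scored high. The highest-scored Z peak of non-induced HD3 lay at 916246 to 917367 (score 593, rank 148 of 8768). It was called in all 3 lists, with scores of 216 in induced HD3 and 513 in DT40. The next, at 13602519 to 13603694 (score 526), was likewise in all lists, and in induced HD3 it was the second Z peak by score (254). At 34429446 to 34430126 lay another of the 5 top Z peaks of induced HD3 (score 238), with 434 and 480 in non-induced HD3 and DT40. These sites therefore ranked high on Z in each list that called them.

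Of the proximal sites, 48 of 336 were called in all 3 lists, or 14.3% (10.7 to 18.5). Over all sites of the series the share was 23.4%. Sites in non-induced HD3 alone made up 20.8% of proximal sites (16.6 to 25.57), against 9.09% of all sites. Sites in DT40 alone made up 31.5% (26.6 to 36.8), against 41.9%. Induced HD3 overlapped 31.2% of the proximal non-induced peaks (25.1 to 37.8), against 50.2% over the whole list. DT40 overlapped 58.7% of them (51.9 to 65.3), against 75.5%. In the lowest score band, where 93 of the 218 proximal peaks lay, the share called after induction was 5.38% (1.77 to 12.1) on proximal Z and 15.3% on autosomes. In the higher bands it was 37.1%, 63.4% and 78.6% on proximal Z and 29.9%, 60.9% and 93.9% on autosomes, so the proximal share was not the lower one throughout. Read from the other side, 54.0% of proximal DT40 peaks were overlapped in non-induced HD3 (47.4 to 60.4), against 50.1% of the whole DT40 list, and 21.3% in induced HD3 (16.3 to 27.1), against 28.7%. No test of these differences was made.

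Outside the cluster, the 3 highest-scored Z sites of HD3 that DT40 lacked were proximal and in both HD3 lists. The first lay at 58023066 to 58024218 with a score of 492 in non-induced HD3, among the 5 top Z peaks of that list, and of 135 after induction. The second lay at 20384459 to 20385549 (scores 241 and 141). The third lay at 26984464 to 26985612 (scores 229 and 127), 15 kb before the cluster began.

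In the DT40 list, proximal Z had a crowded stretch. Between 25457568 and 25546177 there were 16 DT40 peaks and none in either HD3 list. This stretch was picked with its counts in view, so they are descriptive. Sites in DT40 alone are common, at 31.5% of proximal sites and 41.9% of all sites. A group of 4 lay from 25457568 to 25464287 and a group of 12 from 25525041 to 25546177, and the window of 100 kb that held the latter was among the densest of Z in DT40. The highest score there was 462, at 25525041 to 25526842, among the 3 top Z sites called in DT40 alone, and the lowest was 62.5. Several of the 16 peaks were separated by fewer than 200 bp, so they are not surely separate sites.

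The cluster was called mainly in HD3. It held 43 sites, of which 28 were in both HD3 lists, 12 in non-induced HD3 alone, 1 in non-induced HD3 and DT40, and 2 in DT40 alone. Both HD3 lists without DT40 thus accounted for 65.1% of its sites (49.1 to 79.0), against 4.57% of all sites. DT40 overlapped 1 of 41 non-induced peaks and 0 of 28 induced peaks (upper bound 12.3%), while the shares over the whole lists were 75.5% and 81.0%. None of the 12 non-induced peaks of the cluster in the top score band was called in DT40 (upper bound 26.5%), against 88.7% of autosomal peaks in that band, and all 12 were called after induction. The stretch was singled out with these counts known, so they are descriptive. The excess of non-induced over induced peaks in the cluster depended on list length: with 4820 peaks in each list, non-induced HD3 had 21 there, induced HD3 28 and DT40 2.

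The non-induced peaks of the cluster lay in 3 groups, and in the first and the second group they were evenly spaced. The first group ran from 27000595 to 27035602 with 13 peaks. From midpoint to midpoint they were 2795 ± 126 bp apart (mean ± SD of 12 spacings, range 2490 to 2947). The second group ran from 27096654 to 27122895 with 10 peaks, spaced 2778 ± 109 bp apart (9 spacings, range 2641 to 2958). Peaks of these groups thus followed each other at nearly the same step of about 2.8 kb, with an empty stretch of 61.1 kb between the groups. Mean and SD here are over spacings within 1 library.

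Induced HD3 showed the same step at the same places. All 13 peaks of the first group were called, 2796 ± 135 bp apart (12 spacings). In the second group 9 of 10 were called, and the missing one left a gap of 5644 bp between neighbours, while the other spacings there ran from 2636 to 2882 bp with a median of 2764 bp. Midpoints of induced and non-induced peaks differed by a median of 35 bp in the first group (largest 91 bp) and of 42.5 bp in the second (largest 117 bp).

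**Figure D3:**
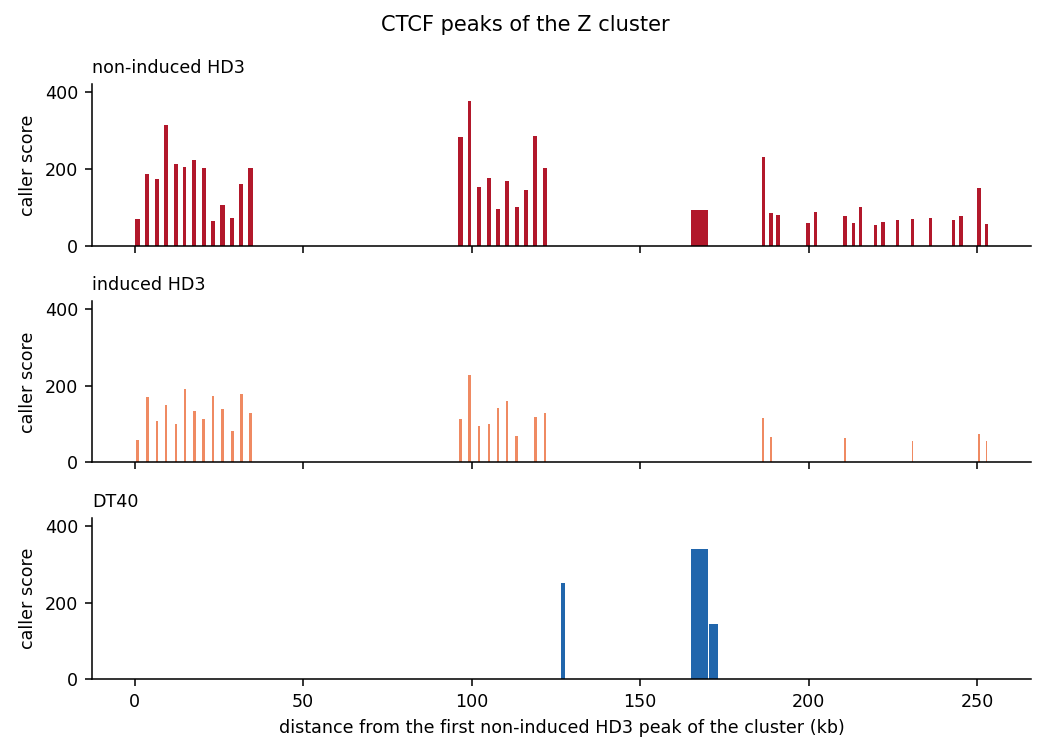
Caller score (y axis) of each peak of the cluster against its distance from the first non-induced peak (x axis, kb), with 1 panel for each library and bars as wide as the peaks. The first and the second group appear as combs in both HD3 panels, and the 3 DT40 peaks fall between the groups; heights are not comparable between panels.

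The third group was looser. It ran from 27186664 to 27253967 with 17 non-induced peaks, of which 6 were also called after induction. Of its 16 spacings, 8 were shorter than 3 kb, with a median of 2223 bp and a range of 2172 to 2307 bp. The other 8 were longer, and 6 of them were within 0.1 of a whole multiple of 2223 bp: 3.99, 3.98, 2.00, 1.94, 2.06 and 2.99 times. The remaining pair were 2.40 and 2.43 times. As the unit of 2223 bp was taken from the same group of spacings, these multiples are a description. How many spacings would lie within 0.1 of a whole multiple without a common step was not estimated. The short spacings were thus below the 2.8 kb of the other groups. Scores were lower too, with a median of 71.6 in non-induced HD3 (range 53.8 to 231), against 187 in the first group and 173 in the second.

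**Figure D4:**
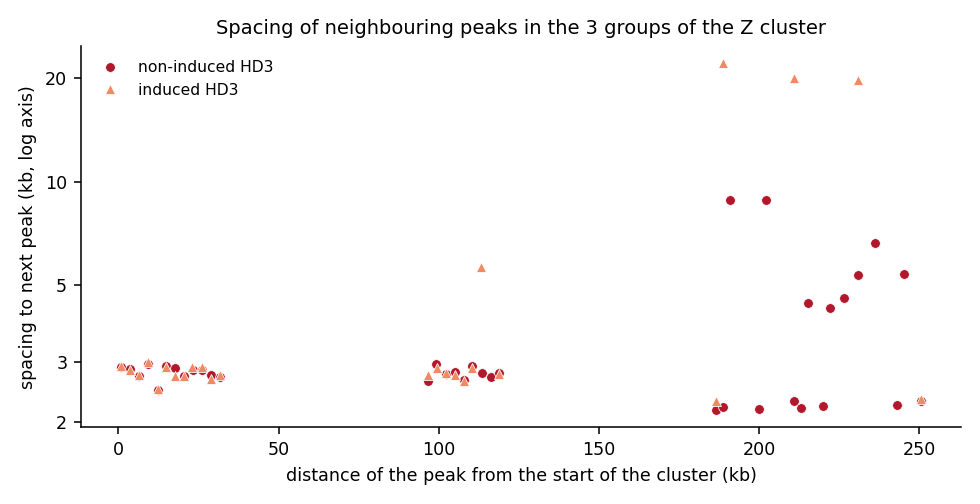
Distance from each peak midpoint to the next within its group (y axis, kb, log scale) by position in the cluster (x axis, kb) for non-induced and induced HD3; each point is 1 pair of neighbours. Points of the first and the second group lie at about 2.8 kb apart from 1 induced value of 5644 bp, and the shortest values of the third group lie at about 2.2 kb.

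A run was defined, after these peaks had been seen, as at least 5 successive peaks whose largest spacing exceeded the smallest by less than 25%, with the first under 10 kb. In non-induced HD3 there were 2 such runs among 8768 peaks, and in induced HD3 2 among 4820, and all 4 lay in the cluster. DT40 had 5 runs among 13574 peaks and none of them on Z; they were on chromosomes 1, 2 and 20 and on LGE64. With a limit of 15% there were 3 runs on Z in each HD3 list, and with 50% there were 2, again with none elsewhere in HD3 in either case. DT40 had 4 and 15 runs under these limits, none of them on Z. The sequence under the peaks was not examined, so whether repeats lie there, and where MHM lies in this build, is not given here.

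Within the cluster the highest-scored peak was the same in both HD3 states. It lay in the second group at 27099400 to 27100416 in non-induced HD3 (score 378, percentile 94.2), and at 27099635 to 27100319 after induction (score 228, percentile 93.6). The next in non-induced HD3 were at 27009341 to 27010432 (315), 27118883 to 27120085 (286), 27096654 to 27097881 (283) and 27186664 to 27187737 (231). All of these were called after induction, with scores from 114 to 149. In induced HD3 the next were at 27015114 to 27015666 (191), 27031795 to 27032619 (177), 27023471 to 27024012 (174) and 27003945 to 27004683 (172). The order within the combs differed between the states: the peak at 27023471 had a score of only 65.2 without induction.

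The 3 DT40 peaks of the cluster lay outside its 3 groups. One was at 27127043 to 27128346 (score 251), just past the second group. Another was long, from 27165820 to 27170713 (4894 bp, score 341), and was overlapped by the single non-induced peak outside the groups, at 27165577 to 27170762 (5186 bp, score 92.7). The third followed at once, from 27170896 to 27173589 (score 145).

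Distal Z was dense. Non-induced HD3 had 12.8 peaks per Mb there (10.8 to 15.0), induced HD3 10.5 (8.73 to 12.6) and DT40 23.2 (20.5 to 26.2). Microchromosomes 11 to 28, the densest autosomes as a group, had 14.8, 8.93 and 23.2. Of the distal DT40 gaps between neighbours, 34 of 266 were under 200 bp, so these DT40 peaks are not surely separate sites. In non-induced HD3 0 of 146 distal gaps were that short, and in induced HD3 1 of 120. With the end of Z included, everything beyond 70 Mb was 15.0% of the span and held 36.2% of the Z peaks of non-induced HD3, 55.2% of induced HD3 and 57.6% of DT40. The ratio of density beyond 70 Mb to that before it was 3.21 without induction (2.61 to 3.95), 6.97 after induction (5.37 to 9.07) and 7.70 in DT40 (6.50 to 9.13). With each list shortened to its 4820 best-scored peaks, the size of the induced list, the ratio was 6.77 in non-induced HD3 and 18.2 in DT40.

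Distal peaks were concentrated in 5.5 Mb. The bounds of this stretch and of those beside it were set with the counts known, so their densities are descriptions. From 73014007 to 78327536 there were 114 non-induced, 98 induced and 222 DT40 peaks, or 20.7 per Mb (17.1 to 24.9), 17.8 (14.5 to 21.7) and 40.4 (35.2 to 46.0). Between 70 and 73 Mb there were only 11, 5 and 15 peaks. From 78561792 to 79961485 there were 4 in each list, and no list had a peak from 79 to 79.5 Mb. From 80014866 to 81477722 the counts rose again to 18, 14 and 26. At this finer scale density did not rise steadily towards the end of the chromosome in any library.

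Distal peaks were also longer and higher in their lists than those of proximal Z. Their median length was 1462 bp in non-induced HD3, 703 bp in induced HD3 and 747 bp in DT40, each above the autosomal median. Their median score stood at percentile 62.7 of the non-induced list and 78.0 of the DT40 list, but at 48.9 of the induced list. At like score the greater length than on autosomes did not hold throughout. From the lowest to the top band of the DT40 list, distal medians were 513.5, 663, 603.5 and 941 bp. Autosomal medians there were 595, 664, 741 and 877 bp. In non-induced HD3 they were 1163, 1198, 1565.5 and 1614 bp on distal Z, against 1170, 1201, 1230 and 1278 bp. Induced HD3 was shorter on distal Z in the second band only (603 against 627 bp). Of the 11 Z peaks of non-induced HD3 longer than 3000 bp, 10 were distal. In induced HD3 2 of 4 such peaks were distal, and in DT40 only 1 of 9. The longest of the non-induced ones, at 77866067 to 77872965 (6899 bp, score 87.4), was overlapped in DT40 (score 208) and not after induction.

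The distal sites were widely shared. All 3 lists had 102 of the 256 sites, or 39.8% (33.8 to 46.1), against 23.4% of all sites and 23.6% on autosomes. DT40 overlapped 139 of 147 distal non-induced peaks, or 94.6% (89.6 to 97.6), against 75.5% of the whole list. This was also seen at like score: from the lowest to the top band of the non-induced list, 90.5%, 83.9%, 100% and 98.0% of distal peaks were called in DT40. The proximal shares were 48.4%, 58.6%, 78.0% and 71.4%, and the autosomal shares 62.1%, 71.6%, 81.3% and 88.7%. Peaks crowd together on distal Z, and DT40 peaks cover 2.04% of it against 1.09% of autosomes. On microchromosomes 11 to 28 they cover 1.83%, and DT40 overlapped 80.8% of non-induced peaks there. The part of this crowding in the overlap was not tested. Induced HD3 overlapped 72.1% of distal non-induced peaks (64.1 to 79.2), against 50.2% of the whole list. From the lowest to the top score band these shares were 47.6%, 48.4%, 77.3% and 92.2% on distal Z. On autosomes they were 15.3%, 29.9%, 60.9% and 93.9%, so distal Z was the higher in all but the top band. In the other direction, non-induced HD3 overlapped 89.3% of distal induced peaks (82.3 to 94.2), against 92.3% of the whole list. Of the distal DT40 peaks, 63.3% were overlapped in non-induced HD3 (57.2 to 69.1), against 50.1%, and 39.7% in induced HD3 (33.8 to 45.8), against 28.7%. These shares were 63.6% and 37.1% on chromosomes 6 to 10, close to distal Z. They were 45.1% and 25.0% on chromosomes 1 to 5, and 53.4% and 31.9% on microchromosomes. Of the 267 distal DT40 peaks, 138 were in the top score band, where the share in non-induced HD3 was 92.8% against 81.7% on autosomes. From the lowest band up, the other shares were 22.0%, 33.3% and 42.5% on distal Z and 23.0%, 37.5% and 58.8% on autosomes, so distal Z was the higher in the top band and the lower in the rest. Distal sites in non-induced HD3 alone numbered 4, or 1.56% (0.427 to 3.95) against 9.09% of all sites. Those in induced HD3 alone numbered 11, or 4.30% (2.16 to 7.56) against 1.18%, and those in DT40 alone 96, or 37.5% (31.6 to 43.7) against 41.9%, which lies within the interval.

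**Figure D5:**
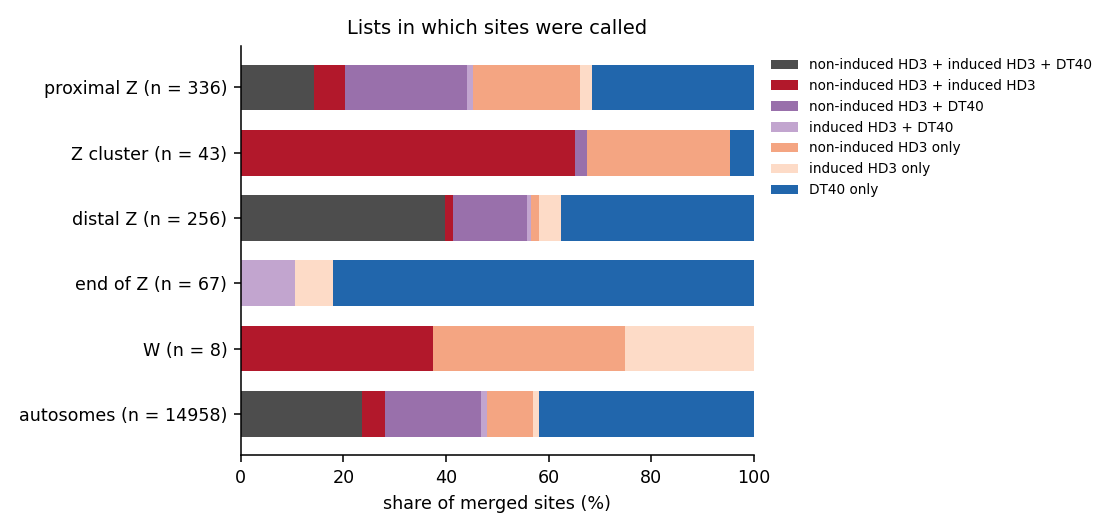
Share of merged sites (x axis, %) by the lists in which they were called, for each part of Z, for W and for autosomes, with the number of sites beside each bar. Sites in all lists take 39.8% of distal Z and none of the cluster, the end of Z or W. The cluster is mostly the class of both HD3 lists and the end of Z mostly DT40 alone. Classes with non-induced HD3 are empty at the end of Z because of where the cut was made.

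The 3 highest-scored distal peaks of non-induced HD3 lay at 71584059 to 71585228 (score 497), 74066305 to 74067879 (484) and 78202297 to 78203799 (476). All 3 were called in every list. The last of them was the first Z peak of both other libraries, with a score of 279 in induced HD3 (78202669 to 78203529) and 1580 in DT40 (78202492 to 78203420, rank 34 of 13574). The site at 71584059 had scores of 253 in induced HD3 and 611 in DT40. Also common to all lists was the peak at 75619877 to 75620847 in induced HD3 (score 233), with 353 in non-induced HD3 and 1027 in DT40. The 5 highest-scored Z peaks of DT40 were all distal and all in every list. After 78202492 came 77399261 to 77400304 (score 1425), 77499769 to 77501764 (1276), 74066350 to 74067754 (1260.0) and 74687140 to 74687809 (1114). The peak at 77399261 had scores of 215 and 105 in the non-induced and induced lists, so its place on Z was lower in HD3.

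Among sites called in both lists of a pair, the likeness of score ranks differed between pairs. Spearman's rho was 0.64 over 106 distal sites for the HD3 states and 0.60 over 139 for non-induced HD3 and DT40. On proximal Z it was 0.40 over 68 and 0.59 over 128, and on autosomes 0.72 over 4198 and 0.58 over 6350. For induced HD3 and DT40 it was 0.43 over 104 distal sites and 0.41 over 52 proximal sites, below the 0.61 over 3705 autosomal sites. These are descriptions across sites, which within a list share a library and a caller.

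In the full lists, the end of Z was called mainly in DT40, whose list is the longest (13574 peaks, against 4820 in induced HD3). There DT40 had 62 peaks covering 110 kb of 0.863 Mb, induced HD3 had 12 covering 24.9 kb, and non-induced HD3 had 0, its last peak ending at 81477722. Of the 67 sites, 55 were in DT40 alone, 7 in DT40 and induced HD3, and 5 in induced HD3 alone. DT40 alone thus took 82.1% (70.8 to 90.4), against 41.9% of all sites, but classes with non-induced HD3 are empty here because of where the cut was made, so nothing is read from these shares. Between the lists of DT40 and induced HD3, the latter overlapped 11.3% of the DT40 peaks at the end (4.66 to 21.9), against 28.7% of the whole DT40 list. DT40 overlapped 7 of the 12 induced peaks, or 58.3% (27.7 to 84.8), against 81.0% of the whole induced list. The whole lists include peaks also called in non-induced HD3, which the cut leaves out, so these shares are not of like sets and no deficit is read from them. Among all sites of the series without a non-induced call, 6595 were in DT40 alone, 184 in DT40 and induced HD3, and 186 in induced HD3 alone. In that like set DT40 alone took a larger part than at the end of Z. The part of DT40 sites also called in induced HD3 was smaller there than at the end. These differences were not tested.

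These end peaks were long and mostly of low score. Median lengths were 1392 bp in DT40 and 1854 bp in induced HD3, more than on autosomes (713 and 651 bp), and median scores stood at percentiles 29.0 and 31.3. From the lowest to the top score band of the DT40 list, the DT40 end peaks numbered 27, 19, 10 and 6. Counts at the end of Z with lists of equal length were not taken. Of the DT40 gaps between neighbours, 7 of 61 were under 200 bp. The highest-scored DT40 peaks were at 82356184 to 82361823 (5640 bp, score 768) and 82141533 to 82148055 (6523 bp, score 525). These were also the 2 highest-scored Z sites in DT40 alone. The third of the end peaks, at 82065838 to 82068455 (score 400), was overlapped in induced HD3 (score 54.4). In induced HD3 the highest scores were at 82059850 to 82065757 (5908 bp, score 151), 82011738 to 82013535 (103) and 82041678 to 82043587 (93.2), the last without a DT40 call. The densest windows of 100 kb on Z in DT40 were at 81900001 to 82000000 (17 peaks) and 82200001 to 82300000 (13), followed by 82100001 to 82200000 and 25500001 to 25600000 with 12 each. In induced HD3 the window at 82000001 to 82100000 was among the 3 densest, with 7 peaks beside 8 in DT40.

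On W, calls were made in HD3 and none in DT40. The 8 sites lay between 127789 and 1239270. Both HD3 lists had 3 of them, at 127789 to 129098 (scores 175 without and 62.4 with induction), 295413 to 296685 (228 and 83.1) and 873580 to 875075 (99.6 and 71.4). Non-induced HD3 alone had 3, at 253641 to 254760 (score 111), 525413 to 526868 (95.7) and 999879 to 1002427 (127). Induced HD3 alone had 2, at 1210988 to 1211346 (77.5) and 1237814 to 1239270 (51.6). The 6 non-induced peaks were at percentiles from 42.6 to 82.4 of their list by score, and the 5 induced peaks at percentiles from 3.53 to 47.6. Sites in both HD3 lists without DT40 made up 37.5% of W sites (8.52 to 75.5), against 4.57% of all sites. Every W site lacked a DT40 call, so these shares are not of like sets. Among all sites without a DT40 call, 719 were in both HD3 lists, 1430 in non-induced HD3 alone and 186 in induced HD3 alone. The share of both HD3 lists in that like set lies within the interval given for W, so no excess is read on W. As DT40 had no W peak, all 8 W sites rest on HD3 calls, and 0 of 8 with a DT40 call restates that. Over the whole series, 74.4% of the sites called in HD3 were also called in DT40. Whether DT40 and HD3 cells carry W cannot be read from peak lists.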

How the data were processed

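CTCF ChIP-seq peaks were analysed for non-induced HD3, induced HD3 and DT40, with 1 library each. CASAVA 1.8.2, Bowtie2 and MACS, with build galGal4, are named in the submitters' processing notes; parameters and control were not given in those notes. The authors deposited 1 peak list per library with a score for each peak, whose scale is not stated; the lowest score was 50 in each list. Depth per library is unknown.

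The members, bounds and lists were chosen with earlier results of these data known. Peaks sharing 1 bp or more were merged across lists, and sites were placed in parts of Z by midpoint. Spans were the largest peak end of each chromosome in any list. Intervals are exact Clopper-Pearson for shares and for density ratios, and exact Poisson for densities. Score bands and percentiles were taken over each whole list.

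Positions named are every W site, the 5 highest-scored peaks of Z and of the cluster, and the 3 highest beyond 70 Mb in each list. The 3 highest-scored Z sites of HD3 without DT40 and of DT40 alone, the 3 densest windows of 100 kb (with ties) and the longest empty stretch were also named. Others (proximal crowding, long peaks, the stretches within distal Z, the end of Z) were picked with their values in view. The planned sequence and gene context was not run, because no galGal4 sequence or annotation was at hand; the gene table available describes another build. Alternatives covered score, list length, overlap rule, joining, peak length and bounds. SciPy 1.17.1 gave the intervals, pandas 2.3.3 and NumPy 2.4.6 under Python 3.11.15 handled the tables, and plots were drawn in matplotlib 3.10.9. Merging and run finding were tried on simulated data, where 2000 of 2000 sites and 12 of 12 array peaks were recovered. The simulated sites lay far apart and the array stood alone, so crowded peaks were not covered by this check.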

Additional observations from a re-analysis of the deposited data

How the results depend on the processing

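No paired analysis was possible because the conditions have 1 library apiece, which also means that there was no replicate to leave out. Of 172 values recomputed, 114 stayed within the interval of the reported value or within 1.5 times of a count, and 58 moved. Under each setting run for it, the density beyond 70 Mb (or 65 or 75 Mb) exceeded that before. Either HD3 list likewise had more cluster peaks than DT40 under each setting run. The bounds of both stretches were chosen with the counts known, so these orders are descriptions. The settings run for W only removed or joined peaks, so DT40 could gain no W peak under them. Regular runs were recomputed only under the other spacing limits, where DT40 had none on Z. Leaving out the end of Z and the limits on run spacing were settings added after seeing the data. No other sequence name contains W, so adding unplaced W sequences gave no value. Orders below are non-induced HD3, induced HD3, DT40. A score of at least 100 gave Z densities of 2.32, 0.923 and 3.70 per Mb, 21 and 18 HD3 peaks in the cluster, ratios beyond 70 Mb of 6.77 (non-induced) and 10.8 (DT40), 0 induced W peaks and 4 W sites. It left 46 Z sites in all lists, 23 in both HD3 lists, 3 in induced HD3 with DT40, and 32, 4 and 153 in a single list. Under it induced HD3 overlapped 36.1% and DT40 71.2% of non-induced peaks, non-induced HD3 90.8% of induced peaks, and induced HD3 16.1% of DT40 peaks. Lists cut to 4820 peaks each by score had 2.32, 2.93 and 2.66 peaks per Mb, so that induced HD3 was densest on Z. They held 21 non-induced against 28 induced cluster peaks, the reverse of the order in the full lists. They gave ratios beyond 70 Mb of 6.77 (non-induced) and 18.2 (DT40), 22 sites in non-induced HD3 with DT40, 23 in DT40 with induced HD3, and 20, 67 and 62 in 1 list only. Induced HD3 then overlapped 78.0% of non-induced peaks, non-induced HD3 62.7% and DT40 51.9% of induced peaks, and the HD3 states 61.2% and 56.6% of DT40 peaks. A reciprocal overlap of 50% gave 32 sites in both HD3 lists, 41 in induced HD3 and DT40, 172 only in non-induced HD3 and 60 only in induced HD3. The overlaps were then 23.2% and 48.3% of non-induced peaks (induced HD3, DT40), 39.0% of induced peaks in non-induced HD3 and 34.3% of DT40 peaks in non-induced HD3 (46.6% with midpoints within 500 bp). Joining peaks within 1 kb gave 5.77 DT40 peaks per Mb and 196 Z sites in DT40 alone, against 259 with all peaks. Without the cluster, non-induced HD3 had 4.45 peaks per Mb, both HD3 lists 24 sites, the induced ratio was 9.37, and DT40 overlapped 73.2% and 76.5% of HD3 peaks. Without the end of Z, DT40 had 6.25 peaks per Mb, 6 sites were in induced HD3 with DT40, and non-induced HD3 overlapped 89.1% of induced and 58.7% of DT40 peaks. By covered length in place of peak number, the cluster in induced HD3 and DT40 was 37.3% and 17.7% of that in non-induced HD3, against 68.3% and 7.32%. A boundary at 65 Mb gave ratios of 2.29, 4.77 and 5.43. A stricter score leaves fewer peaks by construction; for the other shifts the cause was not tested.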
